A study of Rattus norvegicus with 23 samples.

Results

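The comparison set PC12 cells that stably express α1ACT at 3 d after splitting (3 libraries) against the same line at 24 h after splitting (3 libraries), 6 of the 23 small RNA libraries of the series. The 6 were chosen by their column names in the deposited read-count table, which give the time and name the line WT, taken here as α1ACT with a repeat of normal length because no label states that match. PC12 is a rat pheochromocytoma line, from a tumour of the adrenal medulla, and serves as a model for neuroendocrine secretion and for neuronal differentiation. α1ACT is a transcription factor translated from the mRNA of the calcium channel gene Cacna1a, and the construct carried 11 glutamine repeats and a C-terminal Flag tag in the vector pcDNA3. The line used beside it carried blank pcDNA3, and its libraries at 24 h and 3 d (3 each) serve here as the same step without the construct. Both lines are stable clones selected with G418, and the labels do not say how many clones each line stands for or whether the replicates came from separate cultures. P-values therefore reflect only how far the samples spread, and that spread may be technical. It was estimated over all 23 libraries, not over the compared 6 alone. All groups shared F-12K medium with horse and fetal bovine serum and plates coated with poly-L-lysine, and each line was sampled at 6 h and 10 d too. The labels give no handling or sequencing batch, so time after splitting and anything else that changed between the harvests cannot be told apart.

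MicroRNAs (miRNAs) are cut as short duplexes from RNA hairpins by the nucleases Drosha and Dicer. Usually 1 strand of the duplex, named 5p or 3p for the arm it comes from, is kept by an Argonaute protein and guides it to mRNAs that pair with its seed, bases 2 to 8. Several hairpins can be cut from 1 primary transcript, so members of a genomic cluster share their transcription but not necessarily their processing or stability, and each arm is counted here as an entry of its own.

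The sequences that the results turn on are set out here by shared seed, 5′ to 3′, from RefSeq (assembly GRCr8), with the seed in capitals. Of the 269 entries that could be tested, 248 matched a mature sequence in that table. The first group sets miR-351-5p, which fell, beside 2 entries of the same seed that were not called.
miR-351-5p: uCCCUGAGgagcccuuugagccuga
miR-125a-5p: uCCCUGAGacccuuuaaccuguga
miR-125b-5p: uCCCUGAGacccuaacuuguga
The next pair shares a seed but moved in opposite directions.
miR-322-5p: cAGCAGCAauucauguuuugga
miR-16-5p: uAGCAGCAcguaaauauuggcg
The miR-450 entries fell together and are nearly identical.
miR-450a-5p: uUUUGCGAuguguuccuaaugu
miR-450b-5p: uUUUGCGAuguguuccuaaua
The 3p arms of the miR-29 family share a seed, and the 5p arm of miR-29b is shown with them because it moved the other way.
miR-29a-3p: uAGCACCAucugaaaucgguua
miR-29b-3p: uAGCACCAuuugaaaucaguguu
miR-29c-3p: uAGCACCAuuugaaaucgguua
miR-29b-5p: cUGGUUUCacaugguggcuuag
Shown next are entries of the cluster in the Clcn5 gene, then miR-100-5p, which fell, beside miR-99b-5p of the same seed.
miR-362-3p: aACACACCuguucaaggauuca
miR-501-3p: aAUGCACCcgggcaaggauuugg
miR-500-3p: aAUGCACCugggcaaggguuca
miR-100-5p: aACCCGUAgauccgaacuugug
miR-99b-5p: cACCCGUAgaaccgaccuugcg
The last set holds entries that rose, with miR-25-3p, which was not called, beside miR-92a-3p of the same seed.
miR-375-3p: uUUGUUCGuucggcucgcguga
miR-92a-3p: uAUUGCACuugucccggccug
miR-25-3p: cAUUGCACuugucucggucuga
miR-103-3p: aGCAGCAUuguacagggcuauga
miR-107-3p: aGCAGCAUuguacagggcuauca
miR-106b-3p: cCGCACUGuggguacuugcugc
miR-671: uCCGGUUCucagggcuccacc

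The 6 libraries held between 2021036 and 3028200 counts, and the 10 most abundant entries took from 70.42% to 72.39% of them. Values are given as CPM, counts per 1000000 counts of the tested entries after scaling by trimmed mean of M values (TMM). The first principal component (54.9% of the variance) placed the 3 libraries of 24 h at -4.738, -5.776 and -2.154 and those of 3 d at 6.59, 1.894 and 4.184, so the times did not overlap on it. Among the libraries of 3 d, replicate 1 stood apart: its counts differed from those of replicates 2 and 3 with a chi-square per degree of freedom of 229 and 222, against 30.6 between these other two. No library was a copy of another, so n is 3 libraries in each group, which need not be separate cultures. Calls that were lost without replicate 1 are given with and without it.

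Of the 413 named entries, 269 had enough counts to be tested, and 60 of them differed between 3 d and 24 h by edgeR's quasi-likelihood test at a Benjamini-Hochberg adjusted p under 0.05 (22.3% of those tested). At 3 d, 27 entries were higher (10%) and 33 were lower (12.3%). The median log2 fold change over the 269 entries was -0.01, and 88 entries had an unadjusted p under 0.05. The changes were mostly modest in size, with a median of 0.625 for the absolute log2 fold change. Of the 60, 27 changed by less than 1.5-fold, and 12 changed by at least 2-fold, of which 3 rose and 9 fell. The 3 libraries of 3 d lay wholly above or below those of 24 h for all 60, and for 117 of the 269 entries in all (43.5%). Under upper-quartile scaling, which moves the median of all entries by 0.129, 8 entries were higher and 48 lower, and 19 of the 27 higher calls were lost, so the balance of rising and falling entries depends on the scaling. Without 24 h replicate 1 the count fell from 60 to 34, without 24 h replicate 2 to 39, and without 3 d replicate 1 it was 47. In a fit of the compared groups alone 64 of 252 entries were called, and p-values moved both ways. The edgeR adjusted p of miR-96-5p was then 0.0314, against 0.00104 in the main fit. That of miR-879-5p was 0.000203, against 0.00134. Under every one of 18 other settings 26 of the 60 were called, and the number of settings that kept a call is given with the entries for which it was below 18.

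Leaving out 3 d replicate 1 lost 16 of the 60 calls, 9 rises and 7 falls, and each kept its direction. Among the rises, the log2 fold change went from 0.60 to 0.36 for miR-132-3p, from 0.42 to 0.29 for miR-425-5p, from 0.36 to 0.26 for miR-328a-3p, from 0.44 to 0.38 for miR-146b-5p and from 0.37 to 0.32 for miR-107-3p. It went from 0.37 to 0.34 for miR-140-3p, from 0.98 to 0.89 for miR-760-3p and from 0.96 to 0.81 for miR-664-2-5p, and it was 0.32 and 0.33 for miR-16-5p. Among the falls, it went from -0.42 to -0.34 for miR-186-5p, from -0.35 to -0.31 for miR-27a-3p, from -0.28 to -0.26 for miR-30a-5p, from -0.67 to -0.54 for miR-98-3p and from -2.58 to -2.02 for miR-3074, and it moved by little for miR-338-3p (-0.39 and -0.40) and miR-190a-5p (-0.51 both ways). Without that library the edgeR adjusted p of these 16 entries ran from 0.0556 for miR-140-3p to 0.227 for miR-328a-3p.

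**Figure D1:**
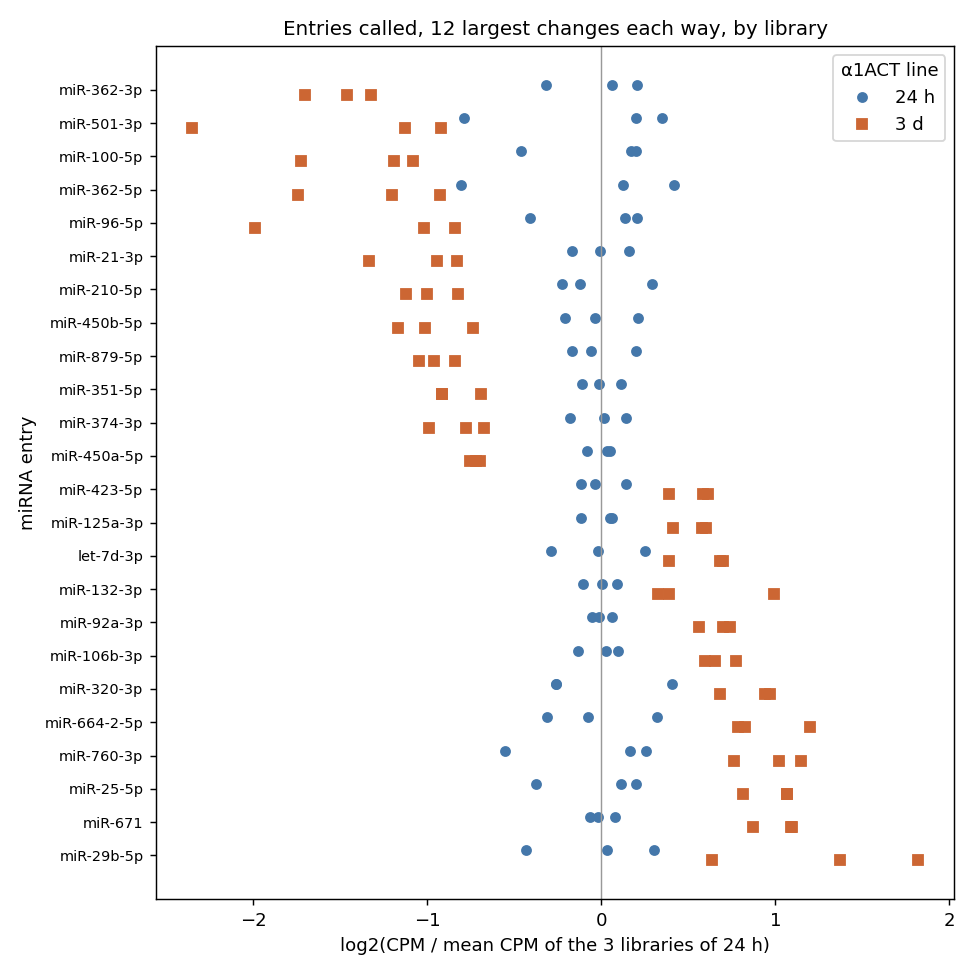
Level of each called entry in each library of the α1ACT line, as log2 of its CPM over the mean CPM of the 3 libraries of 24 h (horizontal axis), for the 12 largest changes in each direction among called entries with a mean of at least 10 CPM. Circles are libraries of 24 h and squares libraries of 3 d, and in each row the squares lie wholly to one side of the circles, which is a condition that all 60 called entries met.

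The miR-322, miR-503, miR-351 and miR-450 cluster fell, or its entries were not called. Its 6 hairpins neighbour each other within 10 kb in the RefSeq gene table, and miRNAs of this cluster are known from muscle and other differentiating cells, where miR-322 and miR-503 restrain the cell cycle. Of its 9 tested entries 5 fell, none rose and 4 were not called, with a median log2 fold change of -0.66. Over all tested entries 12.3% fell and 10% rose. Summed over the cluster, the libraries of 24 h held 6877 to 8051 CPM and those of 3 d held 4216 to 4824 CPM.

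miR-351-5p, the most abundant entry of the cluster and a carrier of the seed of miR-125, was at 4898, 5328 and 4574 CPM at 24 h and at 2618, 2616 and 3058 CPM at 3 d. The groups did not overlap, and the log2 fold change was -0.84 ± 0.107 (SE, n = 3 and 3, edgeR adjusted p = 4.17e-06), the smallest p of all entries tested. miR-450a-5p was at 469, 474 and 433 CPM and then at 272, 279 and 284 CPM, and it fell by 0.72 on the log2 scale (SE 0.107, edgeR adjusted p = 2.35e-05). The libraries within each time lay close together, so this fall was well beyond the spread between replicates. miR-450b-5p, which differs from miR-450a-5p at 1 of the 21 bases they share, went from 95.5, 113 and 84.7 CPM to 43.6, 48.5 and 58.7 CPM (log2 fold change -0.96 ± 0.174, edgeR adjusted p = 0.000198). Reads of such near-identical entries could be split between them by the counting, so the fall of the pair is surer than that of each.

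miR-322-5p, the rodent relative of human miR-424 and a member of the miR-15/16 seed family, was at 1303, 1551 and 1259 CPM at 24 h and at 860, 953 and 1024 CPM at 3 d. All 3 libraries of 3 d were below all 3 of 24 h (log2 fold change -0.54 ± 0.116, edgeR adjusted p = 0.00116). Its other arm, miR-322-3p, fell from 326, 375 and 328 CPM to 241, 245 and 235 CPM (log2 fold change -0.51 ± 0.12, edgeR adjusted p = 0.00229), so both arms of this hairpin fell by a like amount. The entries of the cluster that were not called had log2 fold changes of -0.73 for miR-503-3p, -0.66 for miR-503-5p, -0.22 for miR-542-3p and 0.22 for miR-542-5p. All but miR-542-3p were at lower levels than the called entries, with miR-503-5p at 64 counts over the 3 libraries of 24 h and 34 over those of 3 d.

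**Figure D2:**
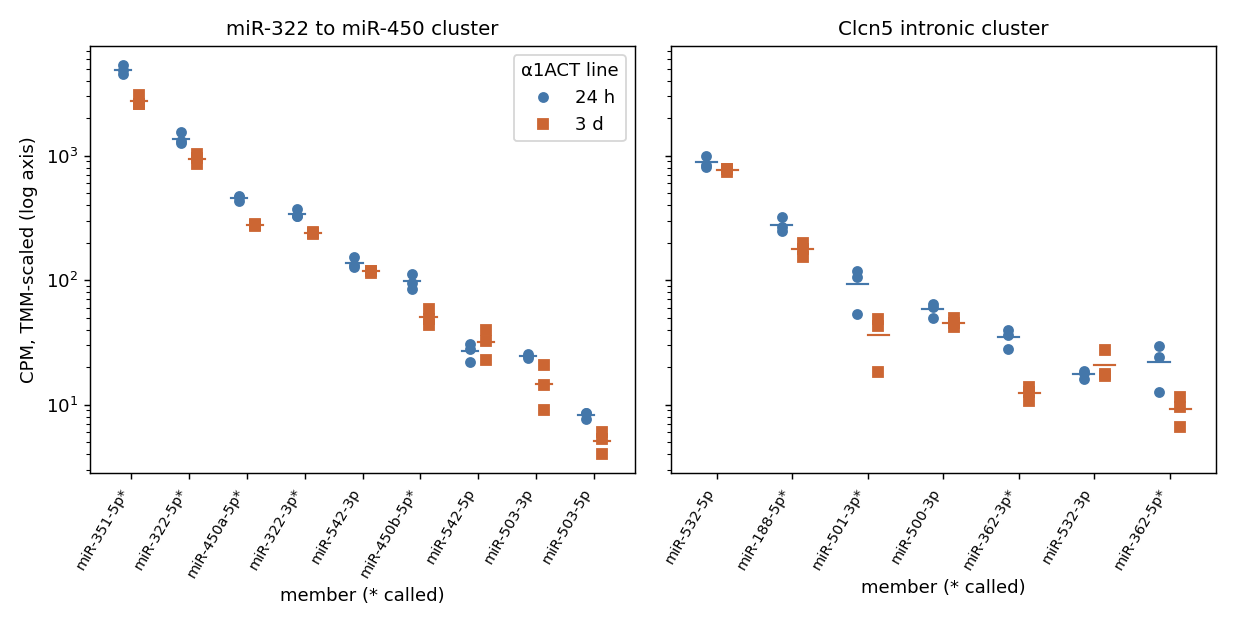
CPM of each tested entry of 2 genomic clusters in the α1ACT line (vertical axis, log scale), with circles for the 3 libraries of 24 h, squares for the 3 of 3 d and short lines for the group means. Asterisks mark the 5 called entries of the miR-322 to miR-450 cluster and the 4 of the Clcn5 cluster, all of them lower at 3 d.

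The hairpins in an intron of Clcn5, a chloride transporter gene, also fell or were not called. Of 7 tested entries 4 fell, beside 12.3% of all tested entries, with a median log2 fold change of -0.66 over the 7. miR-362-3p was at 27.9, 40 and 36.3 CPM at 24 h and at 10.7, 13.9 and 12.6 CPM at 3 d, the largest fall among called entries with a mean of at least 10 CPM (log2 fold change -1.48 ± 0.248, edgeR adjusted p = 0.000123). The other arm of that hairpin, miR-362-5p, fell from 23.9, 29.4 and 12.5 CPM to 11.6, 9.54 and 6.58 CPM (log2 fold change -1.24 ± 0.292, edgeR adjusted p = 0.00236). Both arms of miR-362 therefore moved together, although the lowest library of 24 h and the highest of 3 d came close for the 5p arm.

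miR-501-3p was at 107, 118 and 53.8 CPM at 24 h and at 18.2, 49 and 42.5 CPM at 3 d. Its libraries varied more within each time than those of the entries above, and the groups were separated by a narrow gap (log2 fold change -1.35 ± 0.309, edgeR adjusted p = 0.00302). In a fit of the compared groups alone its edgeR adjusted p was 0.064, so the call was kept in 17 of 18 settings. miR-500-3p, of the same seed, had a log2 fold change of -0.36 and was not called. miR-188-5p fell from 250, 324 and 266 CPM to 178, 201 and 152 CPM (log2 fold change -0.66 ± 0.172, edgeR adjusted p = 0.00711, called in 17 of 18 settings). The 5p and 3p arms of miR-532 had log2 fold changes of -0.21 and 0.24 and were not called.

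The miR-99, miR-100 and miR-125 group lies in small clusters that also hold let-7 hairpins, and its miR-125 members are abundant in neurons. Of 8 tested entries 2 fell and 1 rose, beside 22.3% of all tested entries that were called. miR-100-5p was at 177, 174 and 112 CPM at 24 h and at 46.7, 67.6 and 72.9 CPM at 3 d, a fall of all 3 libraries below the range of 24 h (log2 fold change -1.31 ± 0.224, edgeR adjusted p = 0.000198). miR-99b-5p, which carries the same seed and is far more abundant, was at 6486, 6552 and 4701 CPM and then at 3929, 5077 and 5868 CPM. Its groups overlapped and it was not called (log2 fold change -0.25 ± 0.205). miR-125a-5p and miR-125b-5p, which share the seed of miR-351-5p, had log2 fold changes of -0.43 ± 0.205 and -0.28 ± 0.199 and were not called. The other arm of the miR-125a hairpin, miR-125a-3p, rose from 72.5, 63.8 and 71.7 CPM to 104, 105 and 92.1 CPM (log2 fold change 0.53 ± 0.145, edgeR adjusted p = 0.00817, called in 16 of 18 settings). Thus the less abundant arm rose while the dominant arm did not pass the test.

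The miR-29 family, known for restraining collagen and other matrix genes, fell or was not called, apart from the 5p arm of miR-29b. Of 6 tested entries 2 fell and 1 rose, beside 22.3% of all tested entries that were called. miR-29b-3p fell from 434, 405 and 397 CPM to 269, 265 and 220 CPM (log2 fold change -0.71 ± 0.143, edgeR adjusted p = 0.000628, and -0.44 once a trend with base composition was removed). miR-29a-3p, the most abundant member, fell from 5376, 5124 and 4965 CPM to 4282, 3628 and 3487 CPM (log2 fold change -0.44 ± 0.127, edgeR adjusted p = 0.0129, called in 15 of 18 settings). miR-29c-3p, which differs from miR-29a-3p at 1 of 22 bases, had a log2 fold change of -0.40 ± 0.147 and an edgeR adjusted p of 0.0503, and -0.16 with an edgeR adjusted p of 0.457 once that trend was removed. The 5p arms of miR-29a and miR-29c, both under 30 CPM in every library, were not called, with log2 fold changes of -0.93 ± 0.489 and -0.54 ± 0.273 in the direction of their 3p arms. Unlike these entries, miR-29b-5p was at 11.4, 6.81 and 9.41 CPM at 24 h and at 32.5, 14.3 and 23.8 CPM at 3 d. It was the entry with the largest rise among those with a mean of at least 10 CPM (log2 fold change 1.34 ± 0.301, edgeR adjusted p = 0.00151). In RefSeq this arm comes from the hairpin Mir29b2, and miR-29b-3p comes from both miR-29b hairpins. The hairpin has 81 bases and is printed with both mature arms in capitals, the 5p arm first.
Mir29b2: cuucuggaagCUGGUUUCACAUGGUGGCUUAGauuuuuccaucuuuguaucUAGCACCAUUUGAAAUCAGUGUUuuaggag
Its 5p arm rested on 74 counts at 24 h and 153 at 3 d.

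Other entries that fell by about 2-fold came from separate genes. miR-96-5p, an entry of the cluster with miR-182 and miR-183 that is prominent in sensory cells, fell from 232, 243 and 159 CPM to 53.4, 104 and 118 CPM (log2 fold change -1.20 ± 0.242, edgeR adjusted p = 0.00104). It was the only called entry among the 4 tested of that cluster, beside 22.3% of all tested entries that were called. The far more abundant miR-182 had a log2 fold change of 0.02. miR-21-3p, the minor arm of a growth-linked miRNA, went from 71.8, 90.2 and 80.2 CPM to 32, 45.5 and 42 CPM (log2 fold change -1.02 ± 0.267, edgeR adjusted p = 0.00798). miR-210-5p, from a hairpin induced by low oxygen, fell from 111, 158 and 119 CPM to 64.5, 59.4 and 72.9 CPM (log2 fold change -0.98 ± 0.202, edgeR adjusted p = 0.000933). The dominant arm that serves as the hypoxia marker, miR-210-3p, was at 3588 to 4523 CPM and at 4438 to 4793 CPM, and it was not called (log2 fold change 0.15 ± 0.131). miR-879-5p fell from 821, 982 and 759 CPM to 414, 476 and 439 CPM (log2 fold change -0.95 ± 0.196). miR-374-3p fell from 451, 492 and 393 CPM to 279, 260 and 224 CPM (log2 fold change -0.81 ± 0.152, and -0.36 once a trend with base composition was removed).

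Among the most abundant called entries the changes were modest. miR-375-3p, which marks endocrine cells and restrains hormone secretion in the pancreatic islet, was the most abundant of them. It was at 112250, 128421 and 125097 CPM at 24 h and rose to 180265, 157432 and 169834 CPM at 3 d (log2 fold change 0.47 ± 0.0897, edgeR adjusted p = 0.000324). Every library of 3 d exceeded every library of 24 h, and the call held in all 18 settings. miR-16-5p, known for restraining the cell cycle, was at 22368, 22275 and 23559 CPM and then at 28451, 29483 and 27498 CPM (log2 fold change 0.32 ± 0.116, edgeR adjusted p = 0.0424). With the seed of miR-322-5p it was the only case in which called entries of 1 seed went in both directions. Of 27 seeds held by at least 2 tested entries only 4 had 2 or more called, and in 3 of these the calls went in 1 direction. The call of miR-16-5p held in 10 of 18 settings.

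miR-22-3p fell from 65858, 62778 and 69621 CPM to 55059, 51435 and 52062 CPM (log2 fold change -0.32 ± 0.108, edgeR adjusted p = 0.0297, called in 12 of 18 settings). miR-30a-5p fell from 59280, 66265 and 57336 CPM to 48236, 52124 and 49918 CPM (log2 fold change -0.28 ± 0.0912, edgeR adjusted p = 0.0236, called in 11 of 18 settings). The groups did not overlap for either entry, as for all 60 calls, and both changes were small, the second being the smallest among all calls. miR-191a-5p rose by 0.30 on the log2 scale (SE 0.108), but its call held in only 8 of 18 settings. Of the most abundant entries that were not called, miR-27b-3p had a log2 fold change of -0.19 ± 0.102, let-7i-5p of -0.05 ± 0.102, miR-182 of 0.02 ± 0.109 and let-7f-5p of 0.00 ± 0.128, the last becoming 0.33 and a call (edgeR adjusted p = 0.0446) once a trend with base composition was removed. miR-10b-5p, transcribed from a Hox cluster, was at 108399, 106041 and 106996 CPM at 24 h and at 65708, 115837 and 131155 CPM at 3 d. Its level in 3 d replicate 1 was far below the other libraries, its groups overlapped, and its log2 fold change was -0.04 ± 0.177 with that library and 0.20 without it.

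The entries that rose came from several clusters, whose counts stand here beside the 10% of all tested entries that were higher. In the miR-17-92 cluster, a set driven by Myc that promotes proliferation, 1 of 10 tested entries rose and none fell (median log2 fold change 0.11, and -0.02 under upper-quartile scaling). That entry, miR-92a-3p, was at 1480, 1559 and 1438 CPM and rose to 2203, 2421 and 2491 CPM (log2 fold change 0.67 ± 0.119, edgeR adjusted p = 0.000198). A copy of miR-92a also lies in a related cluster, so its reads do not all belong to this one. In the related miR-106b, miR-93 and miR-25 cluster, which sits in the Mcm7 gene, 2 of 6 tested entries rose. miR-106b-3p rose from 363, 426 and 405 CPM to 680, 625 and 602 CPM (log2 fold change 0.68 ± 0.114, edgeR adjusted p = 0.000123). miR-25-5p rose from 7.98, 11.9 and 11.2 CPM to 18.2, 21.7 and 21.8 CPM (log2 fold change 1.00 ± 0.304, edgeR adjusted p = 0.0178, called in 15 of 18 settings). The arms opposite to these, miR-106b-5p and miR-25-3p, had log2 fold changes of -0.04 and 0.18 and were not called.

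miR-671 was at 62.9, 67.2 and 60.9 CPM at 24 h and at 136, 136 and 116 CPM at 3 d (log2 fold change 1.02 ± 0.152, edgeR adjusted p = 2.35e-05). The replicates were tight at both times, although the other deposited count table gave a smaller rise of 0.58. miR-320-3p, which is made without Drosha, rose from 222, 222 and 353 CPM to 519, 427 and 510 CPM (log2 fold change 0.87 ± 0.173, edgeR adjusted p = 0.000628). Among the 3 tested entries made that way it was the only one called, beside 22.3% of all tested entries. The others, miR-484 and miR-877, had log2 fold changes of 0.00 and -0.13. miR-132-3p, a target of the factor CREB in neurons, was at 99.2, 114 and 107 CPM and then at 212, 140 and 134 CPM. Its rise (log2 fold change 0.60 ± 0.174, edgeR adjusted p = 0.0129, called in 15 of 18 settings) leaned on 3 d replicate 1, without which it was 0.36 with an edgeR adjusted p of 0.165. miR-760-3p and miR-664-2-5p, both under 30 CPM in every library, had log2 fold changes of 0.98 ± 0.298 and 0.96 ± 0.301 and were called in 15 and 14 of 18 settings.

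Smaller rises were spread over further entries. miR-423-5p rose from 775, 817 and 925 CPM to 1098, 1283 and 1258 CPM (log2 fold change 0.53 ± 0.145, called in 15 of 18 settings), and its other arm miR-423-3p rose by 0.42 on the log2 scale (SE 0.111, called in 16 of 18 settings). miR-378a-3p, encoded in an intron of the coactivator gene Ppargc1b, rose from 3691, 4138 and 4111 CPM to 5416, 5668 and 5136 CPM (log2 fold change 0.44 ± 0.0986, called in 18 of 18 settings). miR-103-3p and miR-107-3p, encoded in introns of pantothenate kinase genes, share a seed, differ at 1 of 23 bases and rose by 0.30 ± 0.0932 and 0.37 ± 0.121. They were called in 13 and 12 of 18 settings, and the value of miR-107-3p in the other count table was 0.15. In the miR-191 and miR-425 cluster 2 of 4 tested entries rose, beside 10% of all tested entries. They were miR-425-5p, by 0.42 ± 0.13 (called in 14 of 18 settings), and miR-191a-5p.

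let-7d-3p rose from 455, 548 and 378 CPM to 602, 747 and 740 CPM (log2 fold change 0.60 ± 0.177, edgeR adjusted p = 0.0175, called in 12 of 18 settings). It was 1 of 3 called entries among the 19 tested of the let-7 family, a set that rises as stem cells differentiate. Over all tested entries 22.3% were called. All 3 were passenger 3p arms. The second, let-7e-3p, rose (called in 10 of 18 settings) and the third, miR-98-3p, fell (called in 14 of 18), while none of the 9 guide arms with the family's seed was called. Of these guide arms, let-7f-5p became a call with a log2 fold change of 0.33 once a trend with base composition was removed. The family's median log2 fold change was 0.03, and -0.09 under upper-quartile scaling. The other passenger arms include let-7c-2-3p and let-7a-1-3p, which have identical sequences over 22 bases. The counting gave the reads of a library wholly to the first or wholly to the second, so neither value can be read. Both still count among the 19 tested entries and in the family's median.

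Of the 60 called entries 5 had a mean under 10 CPM and rest on few reads. Over the 3 libraries of each time, miR-125b-2-3p went from 29 counts to 2, miR-3074 from 32 to 4 and miR-193a-3p from 57 to 15. The first and the second were called in 12 of the 16 settings that tested them, and the third in 16 of 18. miR-185-5p went up from 19 counts to 83 and let-7e-3p from 48 to 75. In the other count table miR-3074 and miR-125b-2-3p were not called, with log2 fold changes of -0.39 and -1.27, against -2.58 and -3.39 here.

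Calls in the other families are given beside the 22.3% of all tested entries that were called. In the clusters of miR-23, miR-27 and miR-24, 2 of 10 tested entries fell: miR-24-2-5p from 271, 362 and 242 CPM to 159, 211 and 189 CPM (log2 fold change -0.65 ± 0.131) and miR-27a-3p by 0.35 on the log2 scale (SE 0.11, called in 15 of 18 settings). Of the miR-30 family 1 of 9 fell, and of the miR-15, miR-16, miR-195 and miR-497 group 1 of 7 rose. Among 4 tested entries of the p53-linked list 1 was called, miR-192-5p, which fell from 4462, 4641 and 4457 CPM to 3229, 3423 and 3598 CPM (log2 fold change -0.40 ± 0.0894, edgeR adjusted p = 0.00138, called in 18 of 18 settings). The miR-34 entries of that list, the best known targets of p53, were not called and had log2 fold changes of 0.47 for miR-34a-5p and 0.18 for miR-34c-5p. No entry was called among the 5 tested of the miR-181 family, the 3 of the miR-26 family and the 10 of the miR-130, miR-301, miR-148 and miR-152 families. Further falls were seen for miR-3068-3p (-0.60 ± 0.122), miR-33-5p (-0.51 ± 0.154), miR-190a-5p (-0.51 ± 0.186) and miR-186-5p (-0.42 ± 0.126), of which the first was called in 18, the second in 13, the third in 8 and the last in 14 of 18 settings. The fall of miR-190a-5p was not kept when a trend with base composition was removed, with a log2 fold change of 0.0406 and an edgeR adjusted p of 0.915. Further rises were seen for miR-146b-5p (0.44 ± 0.142), miR-151-3p (0.39 ± 0.0989), miR-140-3p (0.37 ± 0.107) and miR-328a-3p (0.36 ± 0.132), each lost under upper-quartile scaling and called in 13, 16, 13 and 10 of 18 settings.

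Markers of cell types were set beside these changes, and their calls stand beside the 22.3% of all tested entries that were called. In bulk RNA, a change in the share of a cell type and a change of RNA per cell cannot be told apart. Among 4 tested neuroendocrine entries 1 was called, miR-375-3p, which rose. Of the 15 tested entries of miRNAs linked to neurons 2 fell and 1 rose, and their summed level was 5294 to 5546 CPM at 24 h and 4895 to 5458 CPM at 3 d. miR-153-3p, encoded in an intron of a Ptprn gene of secretory granules, fell from 205, 194 and 196 CPM to 117, 117 and 130 CPM (log2 fold change -0.71 ± 0.129, edgeR adjusted p = 0.000198). miR-138-5p fell by 0.44 on the log2 scale (SE 0.112, called in 17 of 18 settings), and miR-344b-1-3p rose by 0.40 (SE 0.118, called in 14 of 18 settings). miR-124-3p, a defining miRNA of neurons, had 0 counts in the 6 libraries, which allows up to 0.215 CPM over them (3 counts of their total), and 3 counts in the other count table. Of 4 tested glial entries 1 was called, miR-338-3p, which fell by 0.39 (SE 0.135, called in 10 of 18 settings).

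No tested marker of mesenchymal, endothelial, epithelial, muscle or blood cells passed the test in either direction. None of the 4 tested mesenchymal and endothelial entries was called, and their sum ran from 641.6 to 888.5 CPM at 24 h and from 600.8 to 622 CPM at 3 d, most of it miR-143-3p. None of the 4 tested epithelial entries was called, with sums of 367.5 to 432.8 CPM and 399.7 to 457.3 CPM. Only 1 muscle entry and 1 entry of blood cells could be tested, and neither was called. miR-133a-3p of muscle and miR-223-3p of myeloid cells had 0 counts in the 6 libraries, with the same limit, and 0 and 5 counts in the other count table.

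Both arms were tested for 76 hairpins. In 29 of these at least 1 arm was called, and in 4 both were: miR-322 and miR-362 fell on both arms, miR-423 rose on both, and the miR-29b arms went opposite ways. Over all 76 the arms had opposite signs in 27. Among the 76 more abundant arms 9 rose and 11 fell, and among the 76 less abundant ones 7 rose and 6 fell. Over all tested entries 22.3% were called. The median log2 fold changes were -0.04 for the more abundant arms and -0.02 for the less abundant ones, and calls were not confined to either kind.

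Levels at 6 h and 10 d place the step within the time course, each step with its own values, since neighbouring steps share libraries. From 6 h to 24 h 28 of the 269 entries were called in this line (10.4%), and from 3 d to 10 d 88 (32.7%). miR-351-5p was at 4686 CPM on average at 6 h, with 4933 at 24 h, 2764 at 3 d and then 3058 at 10 d, and of these steps only that from 24 h to 3 d was called. miR-450a-5p followed a different course, with means of 362, 459, 278 and 450 CPM, and miR-362-3p likewise stood at 28.6 CPM at 10 d against 12.4 at 3 d. The step from 3 d to 10 d was called as a rise for both (log2 fold changes 0.69 and 1.21). miR-100-5p and miR-501-3p had their highest means at 6 h, 327 and 227 CPM, and were called as lower in both steps up to 3 d. miR-92a-3p, miR-671 and miR-320-3p were lowest at 24 h among the first 3 times, with 6 h means of 2143, 116 and 479 CPM close to those of 3 d at 2371, 129 and 485 CPM. For these 3 entries the rise from 24 h to 3 d followed a called fall from 6 h to 24 h. miR-375-3p had means of 128364, 121923, 169177 and 142481 CPM and was highest at 3 d.

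**Figure D3:**
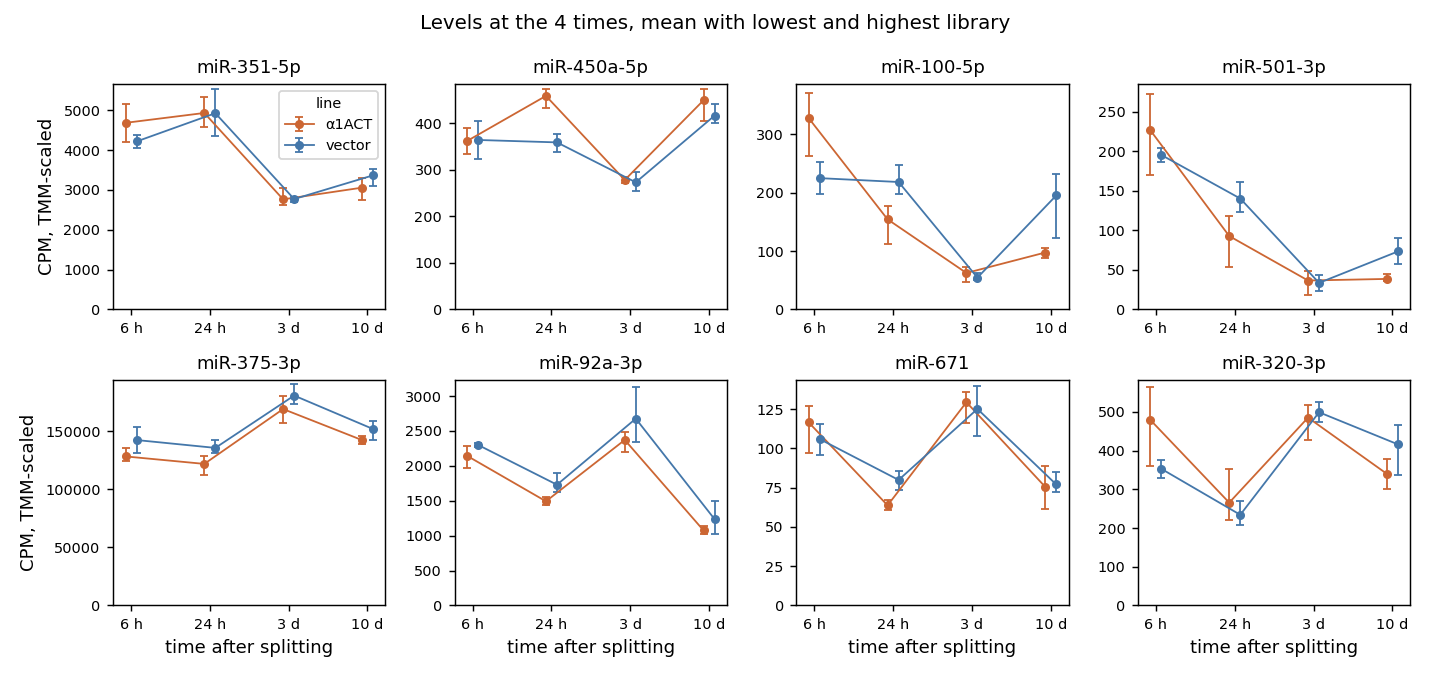
Mean CPM (TMM-scaled, vertical axis from 0) of 8 called entries over the 4 times after splitting, in the α1ACT line and the vector line, with bars from the lowest to the highest library (3 libraries a group, 2 for the vector line at 6 h). Vector 6 h replicate 2 and vector 10 d replicate 2 are drawn under their names in the main count table, which the other table exchanges. The upper row holds entries that fell from 24 h to 3 d, of which miR-450a-5p was back at 450 CPM at 10 d and miR-351-5p was not, and the lower row entries that rose.

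The same step in the vector line gave 64 called entries of 269 (23.8%), 34 higher (12.6%) and 30 lower (11.2%). Called in both lines were 46 entries, 76.7% of the calls of the α1ACT line and 71.9% of those of the vector line, and all 46 went in the same direction. Of the 60 entries called in the α1ACT line, 59 had the same sign in the vector line. The exception was let-7d-3p, at -0.05 in the vector line. miR-351-5p fell by nearly the same amount in both lines, with log2 fold changes of -0.84 and -0.83, as did miR-96-5p with -1.20 and -1.23. miR-375-3p rose by 0.47 and 0.41 and miR-92a-3p by 0.67 and 0.63. These libraries share no sample with the α1ACT step, but 1 vector library of 3 d held only 448557 counts. Vector 6 h replicate 2 and vector 10 d replicate 2 carry each other's names in the other count table: across 220 entries in both tables, deviations from the entry's mean correlated at 0.96 and 0.958 with the exchanged name and at -0.163 and -0.217 with their own. Which table names them rightly was not tested. Neither is among the libraries compared from 24 h to 3 d, but both enter the filter, the scaling and the estimate of the spread. Without them 62 of 278 entries were called in the α1ACT line.

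The difference between the lines was tested as an interaction. No entry was called (edgeR, smallest adjusted p of 1, with 10 entries at an unadjusted p under 0.05, and 0 called by DESeq2 with 9 and by limma-voom with 11). The smallest unadjusted p, 0.017, belonged to let-7d-3p, whose change was larger by 0.64 ± 0.251 in the α1ACT line. Then came miR-877, with -0.13 in the α1ACT line and -0.91 in the vector line, miR-500-3p with -0.36 and 0.26, miR-100-5p with -1.31 and -2.05, and miR-29a-3p with -0.44 and -0.04. None of these differences passed the correction. An entry called in the α1ACT line alone, such as miR-322-5p with -0.54 against -0.28, is therefore not shown to differ between the lines.

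**Figure D4:**
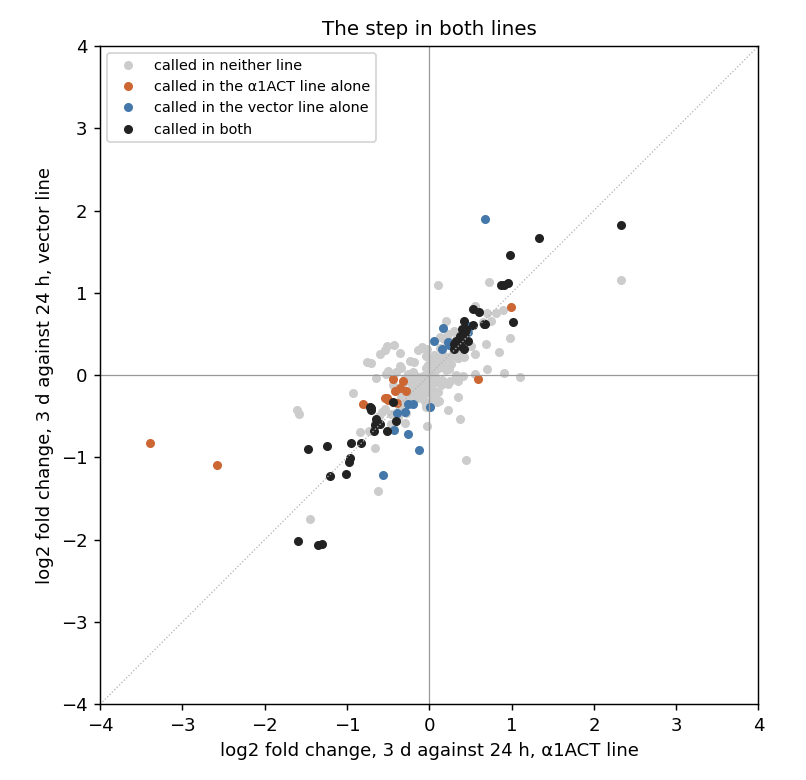
Log2 fold change of 3 d against 24 h in the α1ACT line (horizontal axis) and in the vector line (vertical axis) for the 269 tested entries, with the dotted line of equal change. Black points are the 46 entries called in both lines, and orange and blue points the 14 and 18 called in 1 line alone.

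Base composition moved with the change. Entries that rose had a median of 52.4% G and C in their mature sequence (23 with a sequence), those that fell 45.5% (31 with a sequence), and those not called 47.6%. Of the 83 entries with the lowest share of G and C, from 22.7% to 42.9%, 14 fell and 1 rose, and of the 82 with the highest share, from 52.4% to 77.3%, 9 fell and 12 rose. Across the 248 entries with a sequence Spearman's rho between this share and the log2 fold change was 0.278, and 0.199 in the vector line, given as a description over entries that share libraries. When a trend with base composition was removed from each library, an alternative chosen after seeing the data, 65 entries were called (37 higher and 28 lower), and 51 of the 60 calls were kept. Lost were 8 falls and 1 rise: miR-29a-3p, miR-186-5p, miR-33-5p, miR-30a-5p, miR-98-3p, miR-22-3p, miR-338-3p and miR-190a-5p, and miR-191a-5p. The share ran from 22.7% to 63.6% among entries that fell and from 41.7% to 70% among those that rose. The part of base composition in these changes was not tested further.

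**Figure D5:**
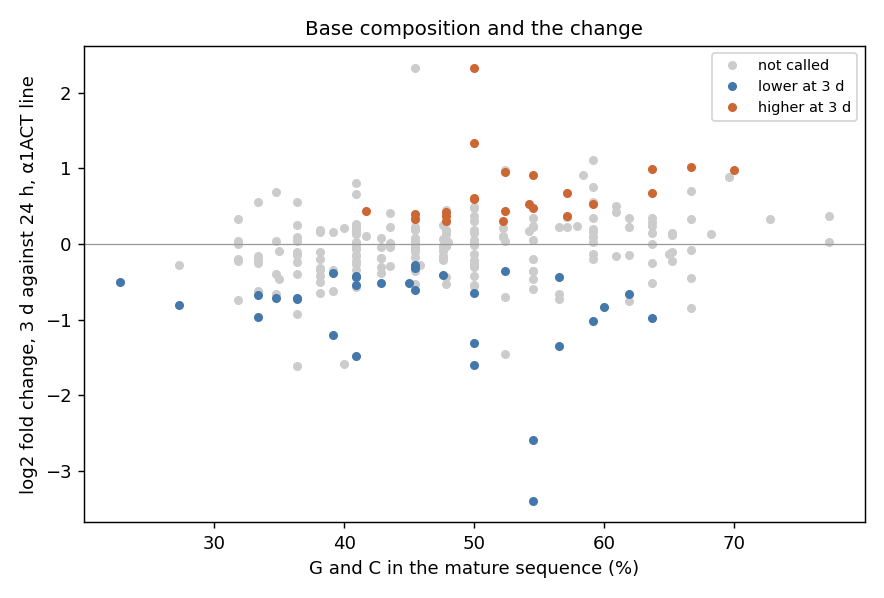
Share of G and C in the mature sequence (horizontal axis, percent) against the log2 fold change of 3 d against 24 h in the α1ACT line (vertical axis) for the 248 entries with a sequence. Blue points are the 31 that were lower at 3 d, orange points the 23 that were higher, and grey points those not called, and below 42.9% G and C 14 points are blue and 1 is orange.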

How the data were processed

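Per the labels' protocols, the small RNA fraction was enriched from total RNA and made into Illumina small RNA libraries. The authors deposited 2 tables of raw read counts, whole numbers with 1 row per mature miRNA, whose names point to sRNAbench with single assignment of reads and to Chimira. The genome build, aligner and miRBase release: not given in the sources used here. Per the submitters' processing notes, edgeR was used. Columns named WT were taken as the α1ACT line, since the construct carries the repeat of normal length. A further 12 columns of each table belong to none of the samples and were not used. The sRNAbench table's 1 unnamed entry holds 0 counts (0% of the total) and was left out.

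The sRNAbench counts were filtered with filterByExpr (269 of 413 entries), scaled by TMM and fitted over the 23 libraries with a mean for each group in edgeR 4.0.16 (R 4.3.3, robust quasi-likelihood, common biological coefficient of variation 16.1%). Benjamini-Hochberg adjusted p-values under 0.05 over all entries tested were calls. SEs come from the log2 fold change and its F value. Without molecular identifiers, PCR copies count as reads, so counting error is understated. The steps were tested on simulated data.

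Named were the 12 largest called changes each way among entries averaging 10 CPM or more, the 5 most abundant called and not called, the 5 smallest interaction p and, for each of 28 lists of families, clusters and markers, members of smallest p. Other called entries, opposite arms, seed partners and cluster members were named with their values already known. The comparison and the lists were chosen with earlier results of these data known. Lists were described by counts and medians, with no test. let-7c-2-3p and let-7a-1-3p were left out of the principal components and of the pairing check. In that check same-numbered libraries of 24 h and 3 d correlated at -0.0221, 0.281 and -0.0264, and the other pairs at -0.25 to 0.24. With 3 libraries in each group this cannot settle whether the numbers pair. The alternatives were the other table, 3 scalings, 2 filters, DESeq2 1.42.0, limma-voom (limma 3.58.1), a replicate block, smaller sets of libraries and an offset for base composition.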

Additional observations from a re-analysis of the deposited data

Results flagged for a closer look

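In the Chimira table, which has 627 entries, tests could be run on 305, and 13 of these have a name that the sRNAbench table does not hold. Over the same step in the α1ACT line, 2 of the 13 were called, beside 54 of all 305 tested there. mir-335, encoded in an intron of the imprinted gene Mest, was at 5083, 5058 and 4365 CPM at 24 h and at 2147, 2802 and 2848 CPM at 3 d (log2 fold change -0.896 ± 0.145, edgeR with Benjamini-Hochberg adjusted p = 0.000163), and in the vector line the log2 fold change was -0.863. The groups did not overlap, and its size was like that of miR-351-5p. mir-30b-5p, a member of the miR-30 family, was at 1410, 1363 and 1279 CPM and then at 1018, 1198 and 1016 CPM (log2 fold change -0.327 ± 0.107, edgeR adjusted p = 0.0365). Of the 60 entries called in the sRNAbench table, all 60 were tested in the Chimira table with the same sign, and 47 were called there.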

How the results depend on the processing

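The count of 60 calls became 34 without α1ACT 24 h replicate 1 and 39 without α1ACT 24 h replicate 2, and leaving out each of the 6 libraries gave 34 to 57. In the vector line leaving out 1 library gave 44 to 59 calls. With the other count table, 3 scalings, 2 filters, DESeq2, limma-voom, the compared groups alone, vector 6 h replicate 2 and vector 10 d replicate 2 (named the other way round in the Chimira table) left out or the base-composition offset, 53 to 65 entries were called in the α1ACT line and 46 to 68 in the vector line. The interaction gave 0 calls in every setting run. Of the 60 calls, 26 were kept in all 18 settings, 59 kept their sign in every setting that tested them, and 2 (miR-191a-5p and miR-190a-5p) were kept in 8.

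With the replicate number as a block, 68 entries were called in the α1ACT line, all 60 among them, 66 in the vector line and 0 for the interaction. Whether the numbers pair the samples could not be settled, and not every library correlated best with its own number.

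Of the calls, miR-190a-5p turned from -0.51 to 0.0406 with the base-composition offset (edgeR adjusted p = 0.915). Other signs turned for entries that were not called. With that offset the log2 fold change was 0.0418 for miR-10b-5p and 0.104 for let-7i-5p. For let-7f-5p it was -0.0083 in the Chimira table, -0.123 with upper-quartile scaling, -0.0194 with library totals and -0.0102 with limma-voom, and for miR-182 -0.106 with upper-quartile scaling. Without 1 library each, values ran from -0.0839 to 0.143 for let-7f-5p, from -0.0493 to 0.112 for miR-182, from -0.238 to 0.205 for miR-10b-5p and from -0.271 to 0.0751 for miR-877. The cause was not tested. Upper-quartile scaling also turned the medians of the p53-linked list (0.05 to -0.08) and of the Drosha-independent list (0.00 to -0.12). At this depth entries under 10 CPM rest on few reads.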
